A study of Mus musculus with 8 samples.

Results

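Costimulatory receptors of T cells, their B7 ligands and 3 receptors of the SLAM family were followed in CT26 tumors under 4 treatments. The 9 genes are Cd28, Icos, Icosl, Cd80, Cd86, Cd226, Slamf1, Slamf6 and Slamf7, taken as every mouse probe on the array that carries one of these names, which gives 22 of 56567 probes kept, for 9 of 37058 gene names. CT26 is a colon carcinoma line, grown here under the skin of BALB/c mice from 500000 implanted cells. Treatment began at a tumor volume of 100 to 200 mm3 and lasted 2 weeks. The vehicle group received neither agent. The TP-16 group (BY001 in the labels) received 75 mg/kg of this EP4 antagonist by mouth every day, the anti-PD-1 group 50 µg of antibody per mouse into the peritoneum at 2 doses per week, and the combination group both agents. Total RNA of whole tumor, 2 samples per group, was hybridised to 8 one-colour Agilent arrays. The labels give no age and leave unsaid how many tumors went into a sample, so p-values measure the spread between these samples, which may be technical.

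A T cell that meets its antigen receives a first signal through the T-cell receptor and a further, costimulatory signal through receptors such as CD28, which binds CD80 and CD86 on antigen-presenting cells. ICOS is a CD28 relative that appears on activated T cells and binds ICOSL, and CD226 (DNAM-1) is an activating receptor of T cells and NK cells that binds CD155 and nectin-2. The SLAM receptors sit on leukocytes, mostly bind themselves on the neighbouring cell and signal through small adaptors, SAP for most of them and EAT-2 for SLAMF7.

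The genes lie in clusters, as the array annotation places them on the mm9 build. The probes of Slamf7, Slamf1 and Slamf6 fall within 305 kb of each other on chromosome 1, with Slamf7 161 kb from Slamf1 and Slamf1 144 kb from Slamf6. Cd28 and Icos are 227 kb apart on the same chromosome, Cd86 and Cd80 are 1880 kb apart on chromosome 16, and Icosl is on chromosome 10. The oligos below are shown 5′ to 3′ in lower case. That of Slamf7 gives its values, and the others are further probes of Slamf6, Cd80 and Cd86, shown because their values are set beside those of the brightest probe. They read Slamf7 at chr1:173569299-173569358, Slamf6 at chr1:173866817-173868145 (60 bases over 1329 bases of genome, so the oligo joins separate exons), Cd80 at chr16:38474174-38474233 and chr16:38479343-38479402, and Cd86 at chr16:36615381-36615440.
Slamf7 A_52_P261262: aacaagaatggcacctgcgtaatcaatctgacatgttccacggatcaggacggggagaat
Slamf6 A_52_P45563: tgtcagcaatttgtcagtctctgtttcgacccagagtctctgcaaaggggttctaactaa
Cd80 A_52_P244005: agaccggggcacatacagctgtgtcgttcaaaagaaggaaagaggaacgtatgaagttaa
Cd80 A_66_P130432: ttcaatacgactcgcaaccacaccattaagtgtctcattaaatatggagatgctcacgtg
Cd86 A_51_P174723: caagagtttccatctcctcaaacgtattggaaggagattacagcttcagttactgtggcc

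Values are log2 intensities relative to the 75th percentile of the same array, so 0 is a fairly bright probe and a difference of 1 is a doubling. A probe counts as detected where the scanner software marked it well above background. Of the 22 probes, 17 were detected on both arrays of at least 1 group and were tested, and each of the 9 genes had at least 1 of them. Where a gene had several, the probe with the highest mean over the 8 arrays stands for it below. The other 5 probes, for Cd28, Icosl, Slamf1, Slamf6 and Cd226, were detected on at most 1 array each and carry no result.

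The slide and the scan were common to the 8 arrays. Antibody-treated samples sat in row 2 of the slide and the rest in row 1, while samples with TP-16 sat in columns 3 and 4, so row and antibody cannot be told apart, nor column and TP-16. The 75th percentile of intensity was 371 to 415 in the vehicle and anti-PD-1 arrays and 530 to 734 in the TP-16 and combination arrays. The vehicle arrays were the farthest apart of any group, with an SD of 0.68 for the difference between replicates over all tested probes against 0.42 to 0.53 elsewhere.

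In tumors of the combination group, the genes called higher were the receptor and SLAM genes, which T cells are not alone in carrying. Whether they differ from the ligand genes was not tested. Against vehicle, 6 of the 9 genes passed an adjusted p of 0.05 (limma, Benjamini-Hochberg over 31912 probes), all of them higher: Cd226, Icos, Slamf7, Slamf1, Slamf6 and Cd28. The ligand genes Cd86, Cd80 and Icosl did not pass. In the same comparison 32% of all tested probes passed, 9.1% higher and 22.9% lower. The median log2 difference of the 9 genes was 2.63 and that of all tested probes was -0.20. Of all calls, 28.4% were higher in this scaling and 49.6% under quantile normalization, which moved the median of all probes to -0.01. Slamf1 entered the test only through the combination arrays and so had to differ, which leaves 5 calls among the other 8 genes. Both combination arrays lay above both vehicle arrays for 6 of these 8 genes, Cd86 included, and for 23.3% of all probes. These are whole tumors, in which fewer cells of a type and less RNA per cell cannot be told apart.

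**Figure D1:**
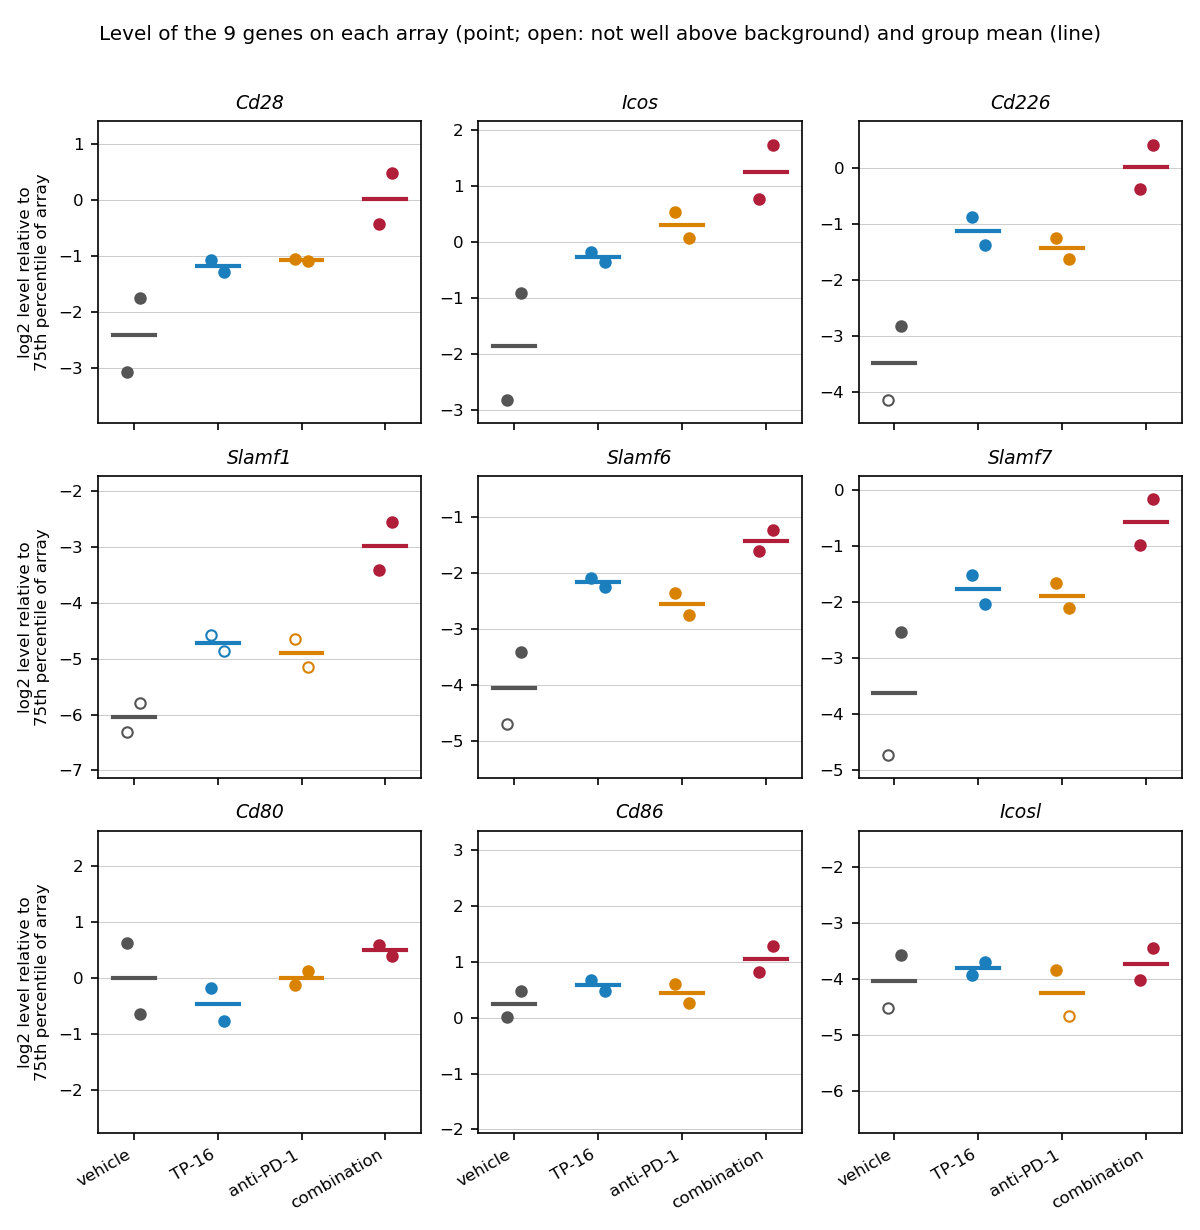
Level of the 9 genes (log2 intensity relative to the 75th percentile of the array, y axis) on each array, by treatment group (x axis). Points are arrays, open where the probe was not well above background, and lines are group means over 2 arrays. Each panel spans the same number of log2 units. For Cd28, Icos, Cd226, Slamf6, Slamf7 and Cd86, both combination arrays lie above the other 6, as was so for 13% of all probes. Slamf1, detected on the combination arrays alone, had to lie so.

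CD28, the receptor that gives the classical second signal, was read by 1 detected probe, on all 8 arrays. Its levels were -3.07 and -1.75 in vehicle, -1.07 and -1.29 in TP-16, -1.06 and -1.10 in anti-PD-1, and -0.43 and 0.48 in combination. The groups did not overlap between vehicle and any treatment, and the single agents were close to each other and midway. Cd28 rose by 2.44 ± 0.48 (SE) in combination, 5.41-fold, with an adjusted p of 0.0177. The difference from vehicle was 1.23 with TP-16 (95% interval 0.05 to 2.42, adjusted p = 0.182) and 1.33 with anti-PD-1 (0.15 to 2.51, adjusted p = 0.321).

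ICOS marks T cells that have been activated. The level of Icos was -2.82 and -0.90 in vehicle, -0.17 and -0.36 in TP-16, 0.54 and 0.07 in anti-PD-1, and 0.77 and 1.75 in combination. Here the anti-PD-1 arrays lay above both TP-16 arrays, and the combination arrays above all others. Icos rose by 3.12 ± 0.65 in combination (8.69-fold, adjusted p = 0.0204), against a difference of 1.60 with TP-16 (-0.01 to 3.21, adjusted p = 0.195) and of 2.17 with anti-PD-1 (0.56 to 3.78, adjusted p = 0.285). All 3 comparisons use the same vehicle arrays, and the first of them was by far the lowest of the 8 for this gene.

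The level of Cd226 was -4.14 and -2.83 in vehicle, where only the second array was above background, -0.89 and -1.37 in TP-16, -1.25 and -1.63 in anti-PD-1, and -0.37 and 0.41 in combination. The rise in combination was 3.50 ± 0.49 (11.3-fold, adjusted p = 0.0105). The differences with the single agents were 2.36 (1.15 to 3.56, adjusted p = 0.0925) and 2.05 (0.84 to 3.25, adjusted p = 0.246). A second Cd226 probe, not above background in either vehicle array and detected in all 6 treated ones, was at least 3.90-fold higher in combination (adjusted p = 0.0287), from a mean of -5.26 to one of -2.16. Such a bound sets the combination mean against the mean, over the arrays of the dimmer group, of the higher of the lowest detected signal and the probe's own signal. The p beside a bound belongs to the measured difference. This second probe passed the filter only through treated arrays, which favours a difference from vehicle, so its p is no separate support.

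Slamf7 and Slamf6, too, had their lowest mean in vehicle and their highest in combination. SLAMF7 (CRACC) is carried by cytotoxic lymphocytes, plasma cells and some myeloid cells, and Slamf7 stood at -4.73 and -2.54 in vehicle, the first of these below background. It was at -1.51 and -2.03 in TP-16, -1.67 and -2.11 in anti-PD-1, and -0.97 and -0.16 in combination. Slamf7 rose by 3.07 ± 0.72 in combination (8.38-fold, adjusted p = 0.0265). With TP-16 the difference was 1.86 (0.10 to 3.63, adjusted p = 0.178) and with anti-PD-1 it was 1.75 (-0.02 to 3.51, adjusted p = 0.347). This was the least stable of the 6 calls. It was lost under 7 of 17 other settings, among them no filter on dim probes (adjusted p = 0.0527), leaving out either anti-PD-1 array, which put it just over the threshold, and leaving out the first combination array (adjusted p = 0.0620).

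SLAMF6 (Ly108) is a SAP-coupled receptor of T cells, including the less differentiated CD8 T cells of tumors, and of NK and B cells. Slamf6 was at -4.69 (below background) and -3.41 in vehicle, -2.08 and -2.24 in TP-16, -2.36 and -2.75 in anti-PD-1, and -1.60 and -1.23 in combination. It rose by 2.63 ± 0.42 in combination (6.20-fold, adjusted p = 0.0116). The exon-joining Slamf6 probe printed above was below background in both vehicle arrays and detected in every treated array, and was at least 4.74-fold higher in combination (adjusted p = 0.0230). It too passed the filter only through treated arrays, so its p is no separate support. The single-agent differences of the first probe were 1.89 with TP-16 (0.86 to 2.92, adjusted p = 0.0933) and 1.50 with anti-PD-1 (0.47 to 2.53, adjusted p = 0.275).

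SLAMF1 (CD150), which gives the family its name, was near the limit of the array. Slamf1 was detected only in the combination arrays, at -3.42 and -2.56, while the other 6 arrays lay between -6.31 and -4.57 and none was above background. The gene was at least 2.65-fold higher in combination than in vehicle, with means of -2.99 and -6.05. The limma adjusted p of 0.0102 belongs to the measured log2 difference of 3.06, which rests on vehicle signals below background. Slamf1 entered the test only through the combination arrays and had to differ, so no p given here for the gene is support. Against the other groups it was at least 2.91-fold over anti-PD-1 (adjusted p = 0.0722) and 3.31-fold over TP-16 (adjusted p = 0.127), where the signal of the undetected probe was itself the higher value on both arrays, so that this figure is its measured difference. Under normexp background correction, which compresses dim signals, its log2 difference in combination was 0.34 with an adjusted p of 0.0855, and that of Slamf6 was 1.08, still past adjusted p. Levels below background carry no order, so the place of the single agents for Slamf1 is unknown.

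The upstream regions of the 3 SLAM genes are printed because the genes are neighbours. RefSeq promoters (GRCm38.p6) were at hand for 5 of the 9 genes. The 250 bases before the start are given 5′ to 3′ on the gene's strand, with matches to short lymphocyte factor sequences in capitals.
Slamf1 promoter, chr1:171766882-171767131, plus strand: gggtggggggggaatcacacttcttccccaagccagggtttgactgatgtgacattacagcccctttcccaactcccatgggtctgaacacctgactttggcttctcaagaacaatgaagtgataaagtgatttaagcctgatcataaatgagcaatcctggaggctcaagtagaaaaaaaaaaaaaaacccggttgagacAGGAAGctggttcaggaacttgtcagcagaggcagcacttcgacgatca
Slamf6 promoter, chr1:171917212-171917461, plus strand: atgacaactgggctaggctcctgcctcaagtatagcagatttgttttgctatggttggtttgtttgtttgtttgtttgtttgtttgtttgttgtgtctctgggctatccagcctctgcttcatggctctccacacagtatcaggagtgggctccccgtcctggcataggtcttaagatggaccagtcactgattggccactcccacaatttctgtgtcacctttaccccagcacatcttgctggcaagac
Slamf7 promoter, chr1:171649000-171649249, minus strand: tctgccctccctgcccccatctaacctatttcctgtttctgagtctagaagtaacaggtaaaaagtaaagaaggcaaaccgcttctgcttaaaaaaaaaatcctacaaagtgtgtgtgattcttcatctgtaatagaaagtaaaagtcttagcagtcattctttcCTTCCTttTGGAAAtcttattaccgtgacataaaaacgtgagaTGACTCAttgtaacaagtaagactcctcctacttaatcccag
The sequences searched on both strands were TTCNNNGAA (STAT), TGANTCA (AP-1), TGTGGT (RUNX), TGGAAA (NFAT) and AGGAAG (Ets). They occur in the same window of 7.02%, 6.75%, 14.0%, 18.6% and 29.5% of 32851 RefSeq promoters. Slamf7 held an Ets match 85 to 80 bases before its start, an NFAT match at 77 to 72 and an AP-1 match at 42 to 36. Slamf1 held 1 Ets match, at 49 to 44, and Slamf6 none of the 5. Of the ligand genes, Cd80 held an AP-1 match at 42 to 36 and Icosl had none. A match is a run of letters, not a shown binding site.

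**Figure D2:**
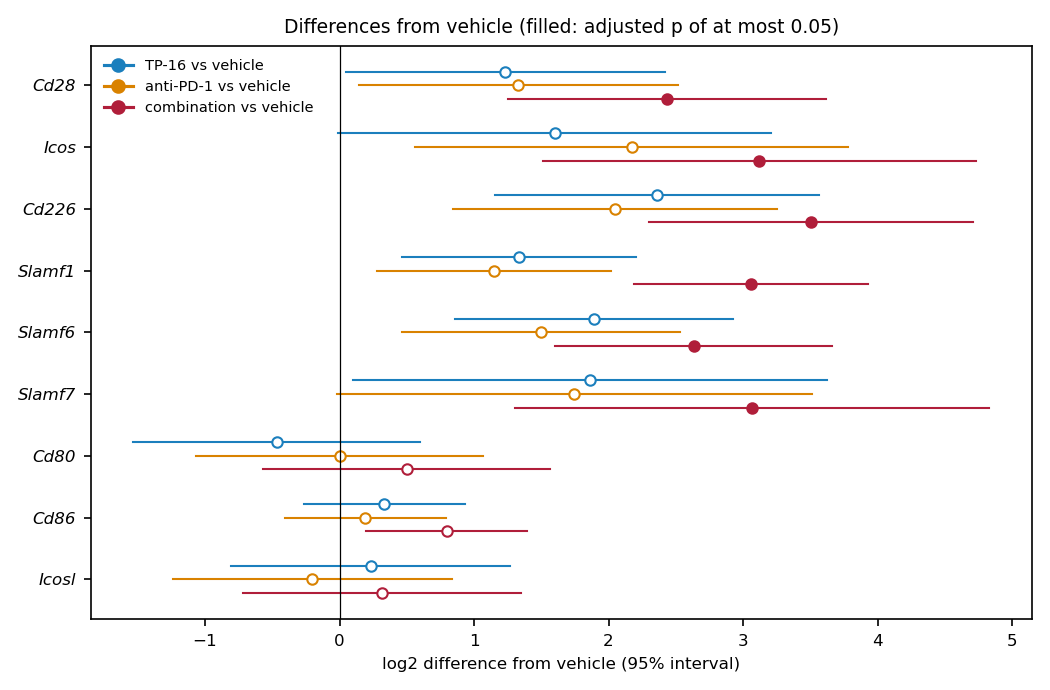
Log2 difference from vehicle (x axis) for each gene (y axis) and treatment, with 95% intervals from the fit over all 8 arrays. Filled points passed adjusted p, which were the 6 receptor and SLAM genes in combination and no gene with a single agent.

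None of the 3 ligand genes passed. CD86, the B7 ligand that dendritic cells and macrophages carry at rest, had 4 detected probes. The brightest was at 0.01 and 0.48 in vehicle, 0.68 and 0.48 in TP-16, 0.61 and 0.27 in anti-PD-1, and 0.81 and 1.27 in combination. Both combination arrays were the highest of the 8, yet the difference from vehicle was 0.80 (0.20 to 1.40), 1.74-fold, with an adjusted p of 0.0528. The other 3 probes differed by 0.55 to 1.07 in the same direction, the printed one by 0.92 (adjusted p = 0.0644). Cd86 is the gene nearest to the threshold. It passed under 4 of 18 other settings, among them 1 probe per gene and normexp background correction, and with the single agents its difference was 0.33 (-0.26 to 0.93) and 0.19 (-0.41 to 0.79).

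CD80, the B7 ligand induced on activated antigen-presenting cells, gave probes that disagree. The brightest Cd80 probe was at 0.64 and -0.63 in vehicle, -0.17 and -0.76 in TP-16, -0.13 and 0.13 in anti-PD-1, and 0.60 and 0.40 in combination. The vehicle arrays spanned all others but the second TP-16 array. Its difference in combination was 0.50 (-0.57 to 1.56, adjusted p = 0.404), while the other 3 probes, each detected on all 8 arrays, differed by -0.15 to -0.81. The most negative of these belongs to the first Cd80 oligo printed above (-1.65 to 0.03, adjusted p = 0.119) and the one nearest 0 to the second (-0.58 to 0.28, adjusted p = 0.540). Without the first vehicle array the brightest probe differed by 1.14 (adjusted p = 0.0451), and without the second by -0.14 (adjusted p = 0.743). With TP-16 all 4 probes were lower by 0.16 to 0.67, none past adjusted p, and no direction can be given for the gene.

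ICOSL, the ligand of ICOS, was dim. Its probe was detected on 6 arrays, with -4.52 (below background) and -3.56 in vehicle, -3.93 and -3.68 in TP-16, -3.83 and -4.65 (below background) in anti-PD-1, and -4.01 and -3.44 in combination. The 4 groups overlapped. The difference in combination was 0.31 (-0.72 to 1.35, adjusted p = 0.591). The direction turned with normexp background correction, to -0.35.

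**Figure D3:**
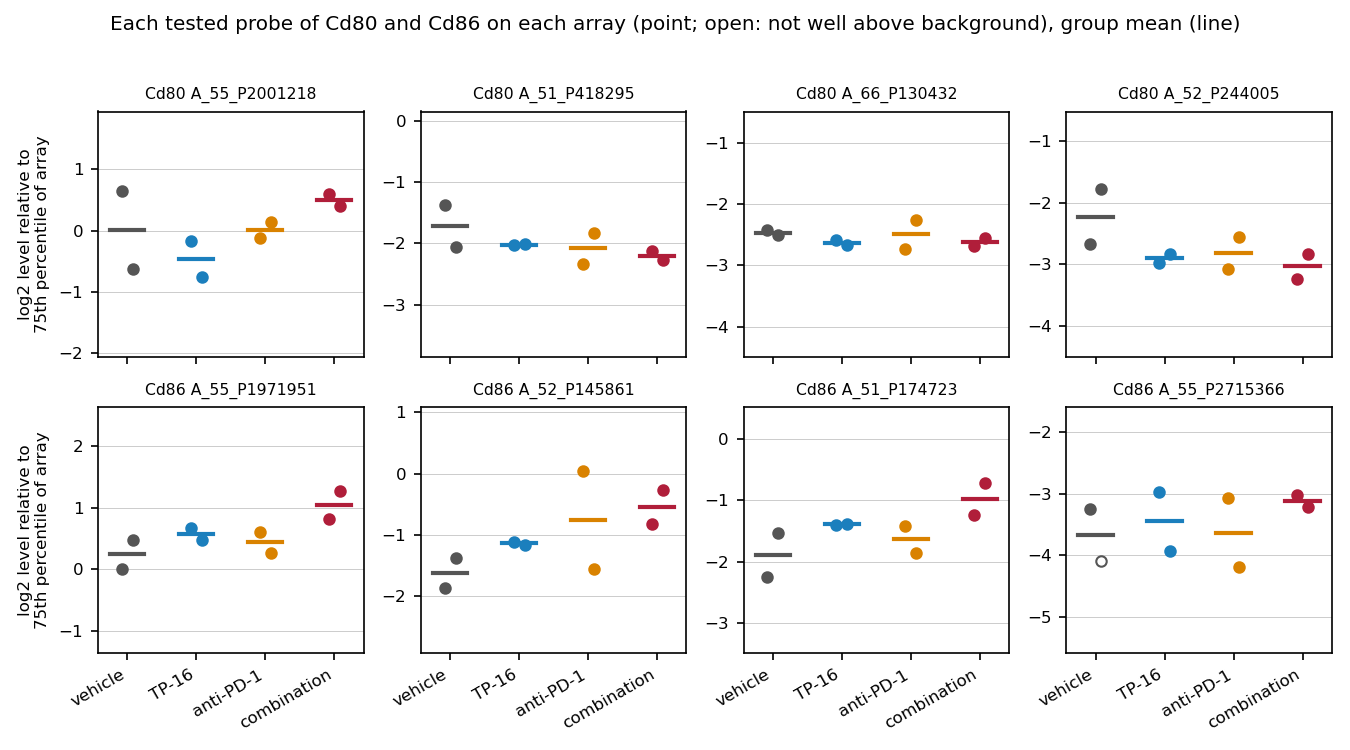
Each tested probe of Cd80 (top row) and Cd86 (bottom row) on each array, as log2 intensity relative to the 75th percentile of the array (y axis), by treatment group (x axis). Points are arrays, open where not well above background, and lines are means of 2 arrays. The 4 Cd86 probes share a direction in combination, and the brightest Cd80 probe runs against the other 3.

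Each single agent was compared with vehicle to see what it did alone, with the same vehicle arrays in both comparisons and in that of the combination. None of the 9 genes passed adjusted p with TP-16 (limma, 5 at an unadjusted p of 0.05), where 0.0533% of all probes did and 25.9% unadjusted. With anti-PD-1 none passed either (limma, 5 unadjusted), where 0.0721% of all probes did and 14.5% unadjusted. At the looser threshold of the study's methods, a fold of 2 with an unadjusted p of 0.05 (here the p of limma), 4 genes were higher with TP-16: Cd226, Slamf6, Slamf7 and Cd28. With anti-PD-1 the 4 were Cd226, Slamf6, Icos and Cd28. The share of all probes that were higher by this rule was 1.57% and 1.67%. In combination 5 of the genes named above met it, and Slamf1, which had to, against 6.12% of all probes. Slamf1 is the fifth of the unadjusted calls with each agent and met the numbers of the looser threshold too, but it was below background on every array of vehicle and of the single agents, so it is not counted and no fold is given for it there. With the Student's t-test that the methods name in place of limma, 0 genes other than Slamf1 met the looser threshold with either agent, and Cd226 alone did in combination, beside 0.351% (TP-16), 0.338% (anti-PD-1) and 2.42% (combination) of all probes that were higher by this rule. For Cd28, Icos, Cd226, Slamf6 and Slamf7 both arrays of each single agent lay above both vehicle arrays, as was so for 17.7% of all probes with TP-16 and 15% with anti-PD-1. Slamf6 crossed the adjusted threshold under several other settings. It passed adjusted p with TP-16 under quantile normalization, the authors' log2 values, normexp correction (with Cd226) and a trended, robust spread (with Cd226), and with either agent once the second vehicle array was left out. The share of all probes called higher with TP-16 was 0.307% under quantile normalization and with the authors' values, 2.53% under normexp (18.6% in either direction) and 0.896% with the trended spread (4.08% in either direction), and without the second vehicle array it was 0.674% with TP-16 and 0.658% with anti-PD-1.

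The combination was then set against each single agent, which asks whether the second agent added to the first. The brightest probe of each gene had a higher mean in combination. Slamf1 apart, the difference was 0.08 (Icosl) to 1.52 (Icos) over TP-16 and 0.50 (Cd80) to 1.45 (Cd226) over anti-PD-1. Of the other 3 Cd80 probes, 2 ran the other way over TP-16 and 1 was at 0.0061, and over anti-PD-1 all 3 ran the other way, at -0.22 to -0.12. No difference passed adjusted p in limma. Slamf1 was detected on the combination arrays alone and had to differ, so it is counted apart. Over TP-16 the unadjusted p was under 0.05 for Cd28 (1.20, 0.02 to 2.39) and for Slamf1, beside 22.3% of all probes, of which 0% passed adjusted p. Both genes also met the fold threshold there, as did 3.52% of all probes in this direction. Over anti-PD-1 it was so for 3 genes, Cd226 (1.45, 0.25 to 2.66), Slamf6 (1.13, 0.10 to 2.17) and Cd86 (0.61, 0.01 to 1.20), and for Slamf1, beside 26.2% of all probes, with 0.0157% past adjusted p. All but Cd86 met the fold threshold, as did 2.3% of all probes in this direction. In 6 of the 8 genes other than Slamf1, Cd80 and Icosl apart, both combination arrays were above the other 6, as was so for 13% of all probes. The departure from additivity on the log2 scale lay between -0.90 (Cd226, -2.61 to 0.80) and 0.97 (Cd80, -0.54 to 2.47). None of these passed adjusted p in limma (0 at an unadjusted p of 0.05, beside 7.32% of all probes, and 0% of all probes adjusted). Every one of the 9 intervals reached 2-fold in at least 1 direction, so 2 arrays per group do not bound effects of that size. That of Slamf1 rests on groups below background and measures nothing.

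Markers of the immune cells moved with these genes, and their part in the results was not tested. The mean of Cd3d, Cd3e and Cd3g, which encode chains of the T-cell receptor complex, was -1.01 and 1.36 in vehicle, 2.09 and 1.76 in TP-16, 2.06 and 1.68 in anti-PD-1, and 2.29 and 3.0 in combination. The first vehicle array was the lowest of 8 here, and it was also the lowest of 8 for 6 of the 8 genes other than Slamf1. How many of all probes were lowest on that array was not counted, so nothing particular to these genes follows. Of 7 T-cell markers, Cd3e (1.81, adjusted p = 0.0273) and Cd8a (3.76, adjusted p = 0.0477) rose in combination, and Cd4 differed by 0.41 (adjusted p = 0.0881). Cd247, the zeta chain of the same complex, is not in the CD3 mean and differed by -0.27 in combination and -0.50 with TP-16, against the direction of the other chains. The T-cell count was 0 to 5 when 1 of the arrays other than the second combination array was left out, 1 under quantile normalization and 6 under normexp correction. The summed linear level of the markers was 6.60 and 15.1 in vehicle, 18.1 to 21.8 with the single agents, and 25.03 and 41.9 in combination.

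Read against the CD3 mean of the same array, the receptor and SLAM genes moved less between groups than in level, and Slamf1 is left out here because 6 of its arrays were below background. Slamf7 minus the CD3 mean was -3.81 in vehicle, -3.70 in TP-16, -3.76 in anti-PD-1 and -3.21 in combination, and its vehicle arrays, at -4.73 and -2.54 in level, were at -3.72 and -3.90 on this scale. The vehicle arrays stayed farther apart for Cd28 (-2.06 and -3.11), Cd226 (-3.13 and -4.19) and Slamf6 (-3.68 and -4.77), with the first now the higher, and these gaps exceed the changes between the group means of these genes. Cd226, Slamf6 and Slamf7 were below background in the first vehicle array, so for them the order of the vehicle arrays and the vehicle mean are not settled. Slamf6 gave -4.22, -4.08, -4.42 and -4.06 in the same order, and Cd28 -2.58, -3.10, -2.95 and -2.62. Cd226 gave -3.66, -3.05, -3.31 and -2.63, and Icos -2.04, -2.19, -1.56 and -1.39. The absolute size of such a difference depends on the probes and has no meaning, only its change does. Cd86 went the other way, from 0.07 in vehicle to -1.34, -1.43 and -1.60, although its vehicle arrays stood at 1.02 and -0.88, so the change rests largely on the first of them.

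**Figure D4:**
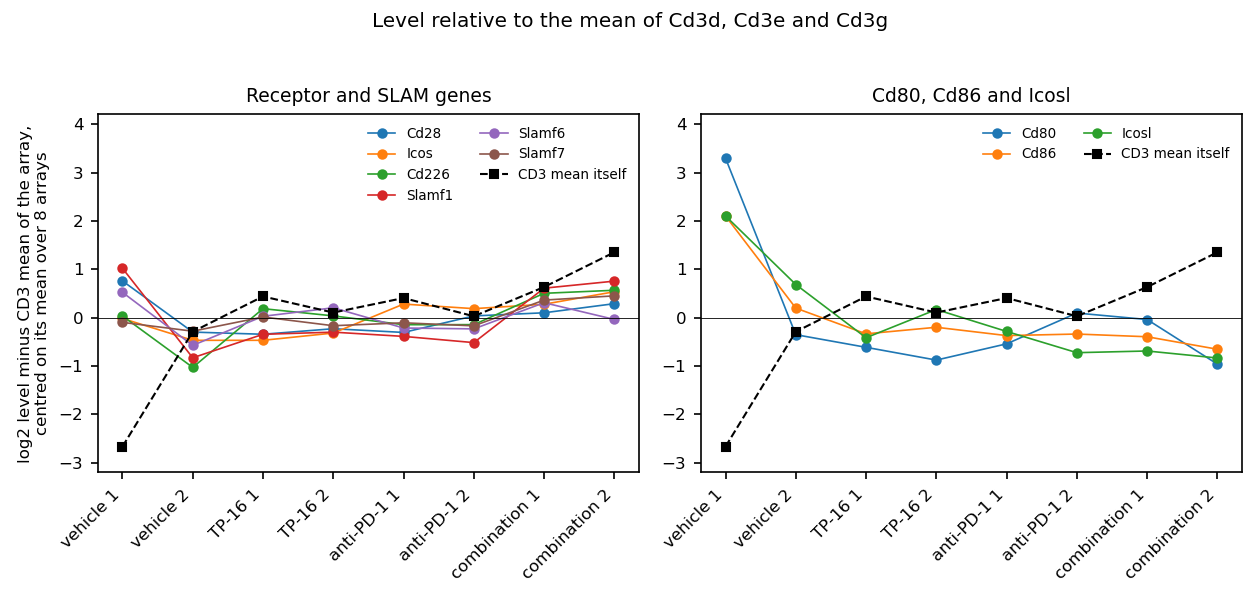
Log2 level of each gene minus the mean of Cd3d, Cd3e and Cd3g on the same array, centred on its mean over 8 arrays (y axis), for each array (x axis). The dashed line is the CD3 mean itself, centred likewise. Cd226, Slamf6, Slamf7 and Icosl were below background in the first vehicle array. Among the receptor and SLAM genes (left), Cd28, Icos, Cd226, Slamf6 and Slamf7 lie nearer to 0 than the CD3 mean does in the first vehicle and second combination arrays, Slamf1 was below background on 6 arrays, and Cd80, Cd86 and Icosl (right) are high in the first vehicle array, where the CD3 mean is low.

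Other cell types moved as well. Of 7 dendritic cell markers, 6 rose in combination, Itgax among them (1.61, adjusted p = 0.0155). For 1 of the 6, Zbtb46, named after its values were seen, only 1 of 3 probes ran this way, and that probe was above background in neither vehicle array. Clec9a, named likewise, was also above background in neither. Both entered the test only through treated arrays, which favours a difference from vehicle. The summed level of the dendritic markers went from 3.32 and 4.77 in vehicle to 10.1 and 14.2. The NK-cell sum went from 0.77 and 2.87 to 5.02 and 7.99, with 2 of 5 markers past adjusted p (0 to 5 leaving out 1 of the same 7 arrays) and Ncr1 at 1.11 (adjusted p = 0.0911). The macrophage sum was 567 and 589 in vehicle and 492 and 505 in combination. A linear sum follows the brightest markers, and the mean log2 level of the same markers ran the other way. It was 4.88 and 4.67 in vehicle and 4.99 and 5.16 in combination. Adgre1 (2.06, adjusted p = 0.0140), Csf1r (0.94, adjusted p = 0.0285) and Cd68 were higher and Cd14 and Lyz2 lower, the last with a second probe that ran the other way. The B-cell and plasma-cell sum was 2.62 and 3.31 in vehicle and 6.11 and 6.70 in combination, with 2 of 7 markers higher and 2 lower. Of 3 pan-leukocyte genes, 2 rose, Ptprc by 1.88 (adjusted p = 0.0116), of whose 4 probes 1 ran the other way. Of the 6 epithelial markers that could identify the carcinoma, Epcam and Vil1 were detected on both arrays of no group, and the sum of the other 4 was 13.4 and 9.19 in vehicle and 5.14 and 3.41 in combination, with 2 of the 4 lower. Of 4 skeletal muscle genes, 0 passed in combination (limma, 0 at an unadjusted p of 0.05).

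Genes around the 9 in the same pathways were read from 5 lists. In the B7 and CD28 family, 5 of 8 tested genes rose in combination and 0 fell. They include the inhibitory receptors Btla (3.04, adjusted p = 0.0107) and Pdcd1, which encodes PD-1 (2.25, adjusted p = 0.0299), and the PD-1 ligands Pdcd1lg2 (2.66, adjusted p = 0.0102) and Cd274 (2.59, adjusted p = 0.0123). Btla was detected in 1 of the 2 vehicle arrays. Ctla4, the inhibitory receptor that competes with CD28 for CD80 and CD86 and named here after its values were seen, differed by 1.74 (adjusted p = 0.173), with vehicle arrays at -4.95 and -2.05.

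In the SLAM family and its adaptors, 6 of 9 tested genes rose and 1 fell. The adhesion receptor Cd2 rose by 3.20 (adjusted p = 0.0139) and its ligand Cd48 by 1.49 (adjusted p = 0.0144). Slamf8, a myeloid family member, rose by 3.08 (adjusted p = 0.0347) and Sh2d1a, which encodes SAP, by 2.19 (adjusted p = 0.0431). The gene that fell, named after its value was seen, was Cd244 (-1.43, adjusted p = 0.0467), whose 3 probes ranged from -1.43 to 1.60 and so do not settle its direction.

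In the CD226 axis, 4 of 8 tested genes rose and 0 fell. These were the competing receptors of the same ligands, Cd96 (2.14, adjusted p = 0.0306) and Tigit (0.99, adjusted p = 0.0408), the activation receptor Crtam (1.90, adjusted p = 0.0107) and its ligand Cadm1 (0.63, adjusted p = 0.0170). Of the 3 Cadm1 probes, 1 ran the other way, at -2.98, so they do not settle its direction. The CD226 ligands did not pass, with Pvr (CD155) at -0.54 (adjusted p = 0.0506) and Nectin2 at -0.04 (adjusted p = 0.805), both named after their values were seen and Pvr with a second probe at 0.28.

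In the signaling list of CD28 and the T-cell receptor, 16 of 18 tested genes rose and 0 fell. Among them were the kinases Zap70 (2.95, adjusted p = 0.0400) and Prkcq (2.49, adjusted p = 0.0140). Of TNF receptors and ligands that costimulate T cells, 4 of 9 rose and 0 fell: Cd27 (at least 5.17-fold, adjusted p = 0.0222), Tnfrsf18 (GITR, 1.63, adjusted p = 0.0381), Tnfsf4 (OX40 ligand, 1.47, adjusted p = 0.0182) and Tnfrsf4 (OX40, 1.29, adjusted p = 0.0206). Cd27 was above background in neither vehicle array and entered the test only through treated ones, which favours a difference from vehicle. The median difference was 1.99, 1.35, 0.51, 1.70 and 1.29 in the 5 lists in the order given, beside -0.20 over all probes. With TP-16 alone, with anti-PD-1 alone and in combination against either agent, 0 genes of the 5 lists passed adjusted p in limma, and 0 did so in combination against vehicle with only the groups compared in the fit or with the t-test. With no filter on dim probes, the combination counts of the 5 lists in the same order were 3, 4, 1, 6 and 1, and those of the T-cell and NK markers were 0, beside 2.13% of all probes called higher. At the looser threshold 4, 3, 1, 5 and 2 genes were higher with TP-16 and 3, 3, 0, 2 and 1 with anti-PD-1, beside the 1.57% and 1.67% of all probes given above.

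**Figure D5:**
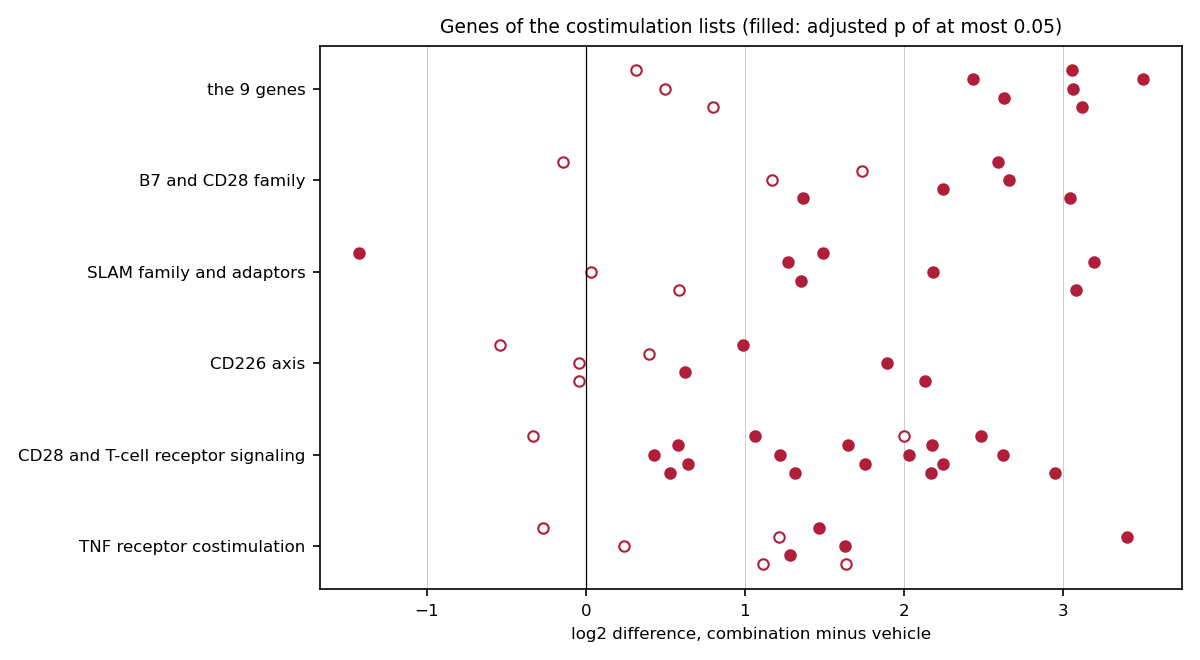
Log2 difference between combination and vehicle (x axis) for the 9 genes and for the tested genes of 5 related lists (y axis). Each point is 1 gene, filled where it passed adjusted p, and the vertical place within a row only separates points. Most points lie to the right of 0, and Cd244 is the filled point below it.

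The adjusted calls rested on the second combination array. It was the highest of 8 for every gene but Cd80, and Slamf1, detected on the combination arrays alone, had to peak there. Nothing particular to these genes follows, since no share of all probes was computed for this array. Without it, 0 of the 9 genes, 0 genes of the 5 lists and 0 of 31912 probes passed adjusted p in combination against vehicle, although 5 of the 8 genes other than Slamf1 still met the fold and unadjusted threshold, as did 4.01% of all probes in this direction, with Cd226 at 3.11 and Slamf7 at 2.66. The lone remaining combination array was then assumed to vary like the other groups. Leaving out any of the other 7 arrays gave 5 to 7 of the 9, and 3 to 7, 4 to 7, 1 to 3, 7 to 13 and 2 to 7 genes of the lists, beside 5.05% to 7.82% of all probes called higher and 18.6% to 26.9% called in either direction.

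The genes whose levels ran most alike were found among 2843 genes detected on all 8 arrays with an SD of at least 0.5 between them, by Pearson's r over the 8 arrays. The arrays share their groups, so a high r says only that the pattern over treatments is alike. For Cd28 the closest were Selplg (0.993), Serpinb6b (0.993) and Hk3 (0.992), and for Icos Il18bp (0.994), Trim21 (0.993) and Uba7 (0.990). Cd226 was closest to Cd7 (0.997), Slfn8 (0.995) and Rnf213 (0.995). Slamf6 ran with Slfn1, Stat4 and Bcl2l14 (each 0.996), and Slamf7 with Tmem229b (0.998), Ltb and Ptprcap (both 0.997). None are given for Slamf1, since 6 of its 8 values were below background. Cd86 had the myeloid genes Pld4 (0.995) and Ly86 (0.993) and then Vav1 (0.988). Cd80 was close to Gm38832 (0.982), Macroh2a3 (0.916) and CB193388 (0.892), and Icosl to Sgsh, Zcchc9 (both 0.943) and Hemgn (0.940). Among the 9 themselves, Cd28, Icos, Cd226, Slamf6 and Slamf7 correlated at 0.946 to 0.993 with each other, and Cd80 at -0.47 to 0.093 with the other genes but Slamf1.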

How the data were processed

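Total RNA of CT26 tumors was labelled with Cy3 and hybridised to 8 one-colour Agilent mouse arrays, 2 per group, and the deposited scanner intensities were extracted per the file headers by Feature Extraction 10.7.1.1, which subtracts background and gives a processed intensity for each of 62976 spots. A second deposited file holds the authors' log2 values, normalized so that all 8 columns have the same distribution (sorted columns differ by at most 0.00115, medians 5.17). Its scale and order followed the scanner intensities (r of 0.996 to 1.00 per array), and the authors' methods name GeneSpring for it without naming the method. Groups came from the labels. The file coordinates are mm9 and the promoters GRCm38.p6, and no coordinate was carried from one to the other.

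From the processed intensities, 959 marked spots and the control spots were left out, spots of a probe were averaged, and log2 values were taken relative to the 75th percentile of each array, for 56567 probes. A probe entered the test if some group had it well above background on both arrays, which left 31912 probes and 21616 gene names. Names came from RefSeq accessions for 58.3% of probes and otherwise from the files. One linear model with 4 group means was fitted with limma 3.58.1 in R 4.3.3 (lmFit and eBayes, 4 residual degrees of freedom and 1.86 prior), giving 6 comparisons: each treatment against vehicle, the combination against each agent, and the departure from additivity. P-values were adjusted by Benjamini-Hochberg over all tested probes, with a threshold of 0.05, and a gene was said to rise or fall only past it. The looser threshold was a fold of 2 with an unadjusted p of 0.05, as in the methods, but with the p of limma in place of that of their Student's t-test. Intervals are 95%. Precision is limited by the number of arrays. Saturation affected 0 probes.

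The 9 genes and the lists were chosen with earlier results of these data known. The genes named were all 9, up to 4 genes per list with the largest called difference between combination and vehicle, 9 marker genes, and for each of the 9 the 3 genes with the highest r among probes detected on all 8 arrays with an SD of at least 0.5. Some genes that this rule would name are not reported here. Alternatives were quantile normalization, normexp background correction (offset 50), the authors' log2 values, no filter, probes detected on all arrays, 1 probe per gene, a replicate block, only the groups compared, a trended and robust spread, the methods' t-test and leaving out each array. Motifs were matched by all letters on both strands.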

Additional observations from a re-analysis of the deposited data

How the results depend on the processing

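With 2 arrays per group the spread rests on 4 degrees of freedom. Of 924 recomputed values of the 9 genes over the alternatives, 850 kept direction and side of the adjusted threshold, 23 lost the call, 16 gained one and 35 turned direction, none of the last past adjusted p. The cause was not tested except where the setting leaves fewer arrays or probes. Dim probes are limited by background, as for Slamf1 and Icosl.

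In combination against vehicle, 6 genes passed adjusted p, and 3 among probes detected on all arrays (where only 4 of the 9 genes can be tested), 0 with only the groups compared in the fit and 0 with the methods' t-test, which call 0 of 31912 probes. The looser threshold gave 2 genes among probes detected on all arrays and 2 with the t-test. Of all probes, 10.8% were called higher by adjusted p among those detected on all arrays, and 5.15% and 2.42% met the looser threshold, higher, in these settings. With TP-16, adjusted calls were 1 under quantile normalization, 1 with the authors' log2 values, 2 under normexp correction and 2 with a trended, robust spread, and the looser threshold gave 2 under normexp, 2 among probes detected on all arrays, 3 with only the groups compared and 1 with the t-test. With anti-PD-1 the looser threshold gave 1 under normexp, 2 among probes detected on all arrays and 0 with the t-test. The shares of all probes higher by the looser threshold were, in the order of these settings, 0.727%, 1.20%, 1.08% and 0.351% with TP-16 and 0.821%, 1.34% and 0.338% with anti-PD-1. Combination against anti-PD-1 gave 2 adjusted calls under normexp and 1, Slamf1, with a trended, robust spread. Normexp called 18.6% of all probes with TP-16 and 22.2% in combination against anti-PD-1, with 2.53% and 3.29% of all probes called higher. The trended spread called 4.08% and 8.57%, with 0.896% and 1.54% of all probes called higher. Quantile normalization and the authors' values called 0.486% with TP-16, with 0.307% of all probes called higher. Counts here include Slamf1 wherever it met the numbers, so the looser counts with a single agent stand beside 5 genes and not the 4 counted without it.

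Values that turned were, under quantile normalization, Icosl with anti-PD-1 (0.33) and the departures of Icosl (-0.32) and Slamf1 (-0.14), and with the authors' log2 values the same 3 (0.33, -0.32 and -0.14). Under normexp they were the departures of Cd226 (0.020), Cd28 (0.25), Icosl (-0.0017), Slamf6 (0.0030) and Slamf7 (0.24), Cd80 with anti-PD-1 (-0.011), and Icosl with TP-16 (-0.25), in combination against TP-16 (-0.10), against anti-PD-1 (-0.25) and against vehicle (-0.35). Slamf1 with TP-16 turned too, but both groups were below background, so no value is given. The departures of Slamf1 above rest on the same dim groups and carry no direction.

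Leaving out each array gave 0 to 1 adjusted and 2 to 7 looser calls with TP-16, 0 to 1 and 1 to 6 with anti-PD-1, and 0 to 7 adjusted calls in combination, the 0 without the second combination array. Of all probes, 0.799% to 3.85% met the looser threshold, higher, with TP-16 and 1.18% to 3.86% with anti-PD-1. Values ran from -1.10 to 0.17 (TP-16), -0.64 to 0.64 (anti-PD-1) and -0.14 to 1.14 (combination) for Cd80, from -0.044 to 0.43 for Cd86 with anti-PD-1, and for Icosl from -0.25 to 0.71, -0.68 to 0.28 and -0.16 to 0.79 in the same order and -0.20 to 0.37 in combination against TP-16. Departures ran from -0.79 to 0.53 (Cd28), -1.61 to 0.31 (Icos), -0.19 to 0.76 (Icosl) and -1.64 to 0.55 (Slamf7).

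With the replicate number as a replicate block, the same 6 genes passed in combination and 6 in place of 5, Slamf1 among both, met the looser threshold with TP-16. Of all probes, 27.3% passed in combination, 7.38% of them all higher, and 1.51% met the looser threshold, higher, with TP-16. Replicate differences correlated at -0.19 to 0.29 between groups, above 0.1 in 4 of 6 pairs of groups. Since not every pair was above 0.1, the numbers were not taken to pair the samples.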
